A study of Mus musculus with 10 samples.

Results

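A set of 9 interferon-stimulated genes (*Ifit1*, *Ifit3*, *Isg15*, *Irf7*, *Oasl2*, *Rsad2*, *Bst2*, *Ifi27* and *Usp18*) was followed in gastrocnemius muscle of smoke-exposed mice with and without the aryl hydrocarbon receptor (AHR) in their muscle fibres. They were chosen by symbol, and each was found among the 49315 genes of the count table by its Ensembl identifier. All 9 were among the 14714 genes with enough reads to be tested. Poly(A) RNA was sequenced from 10 male mice on a C57BL6J background, 5 AHRfl/fl and 5 AHRmKO, with 30393035 to 37954388 counted reads per muscle. Both genotypes carried floxed *Ahr* alleles. The AHRmKO mice also carried HSA-MCM, a tamoxifen-inducible MerCreMer recombinase driven by the human skeletal actin (ACTA1) promoter, which acts in muscle fibres and not in the other cells of a muscle, and they had been injected with tamoxifen to induce deletion. The AHRfl/fl mice were littermates lacking Cre, and the start of exposure is dated from tamoxifen delivery in both genotypes. Every mouse of both genotypes had inhaled cigarette smoke at 220 ± 80 mg/m3 over 16 weeks, on 5 days of each week and for 2 h in a day, and muscle is labelled as taken 72 h after the last exposure, although the study's text also gives a range that begins earlier. There was no air-exposed group among these samples, so the values describe smoke-exposed muscle only. The mice are described as aged, with no age in months given in the sources used here.

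Type I interferons are secreted when a cell senses foreign or misplaced nucleic acid. They bind the *Ifnar1*/*Ifnar2* receptor and, through JAK kinases and the transcription factors these activate, turn on genes that carry an interferon-stimulated response element (ISRE) in their promoters. Interferon gamma acts on gamma-activated sites (GAS) and raises guanylate-binding proteins and antigen presentation. Most of the products block steps of a viral life cycle, and some restrain the response itself. AHR is a ligand-activated transcription factor that smoke constituents bind, and it acts through a response element (XRE) of its own.

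Promoter sequence was examined first, as a property of the genes that the counts do not enter. The genes were chosen as interferon-stimulated, so ISRE letters in their promoters were likely from the choice itself. RefSeq promoter windows (GRCm38.p6, 300 bases, from 250 before to 50 after the annotated start) were found for 7 of the 9 genes, with no entry for *Ifi27* and *Usp18*. An ISRE core, spelled GAAA, any 2 bases, GAAA and searched on both strands, was in 5 of these 7 windows (*Ifit1*, *Ifit3*, *Isg15*, *Rsad2* and *Bst2*). The same letters were in 3.44% of all 32851 windows, and in 16 of 43 (37.2%) other interferon-stimulated genes with a window. Stretches around the matches are shown because they are what most of these genes have in common. They are written 5′ to 3′ on the strand of the gene with the ISRE letters in capitals, which read TTTC, any 2 bases, TTTC where the match lies on the opposite strand.
Isg15: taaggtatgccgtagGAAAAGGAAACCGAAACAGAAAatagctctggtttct
Bst2: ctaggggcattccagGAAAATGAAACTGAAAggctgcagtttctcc
Ifit1: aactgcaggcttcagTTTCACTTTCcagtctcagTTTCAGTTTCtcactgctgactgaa
Ifit3: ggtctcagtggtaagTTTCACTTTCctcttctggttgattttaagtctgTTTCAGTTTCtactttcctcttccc
Rsad2: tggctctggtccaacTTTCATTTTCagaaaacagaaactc

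The *Isg15* stretch (chr4:156200860-156200911, minus strand) held 3 overlapping matches, the first starting 78 bases before the gene's start. The *Bst2* stretch (chr8:71537572-71537617, minus strand) held 2 overlapping matches. *Ifit1* (chr19:34640770-34640828) and *Ifit3* (chr19:34583358-34583431), neighbours on the plus strand of chromosome 19, each held 2 separate matches. *Rsad2* (chr12:26456548-26456587, minus strand) held 1. A GAS core (TTCNNNGAA, both strands) was in 1 of 7 windows, that of *Bst2*, where it overlapped the first ISRE match, against 8.3% of all windows. The XRE core GCGTG, on either strand, was in 3 of 7 (*Bst2*, *Oasl2* and *Rsad2*) against 32.4% of all windows. These matches are descriptions of letters, and binding was not measured.

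By the GENCODE M21 annotation of GRCm38, all 9 are protein-coding genes. *Ifit1* lies at chr19:34640871-34650009, *Ifit3* at chr19:34583531-34588731, *Oasl2* at chr5:114896936-114912234, *Ifi27* at chr12:103434211-103440239 and *Usp18* at chr6:121245906-121270917, all on the plus strand. *Isg15* lies at chr4:156199424-156200818, *Irf7* at chr7:141262706-141266481, *Rsad2* at chr12:26442746-26456452 and *Bst2* at chr8:71534255-71537456, on the minus strand. Exons of *Irf7* share 45 bases with *Phrf1* and those of *Usp18* share 124 bases with *Gm44148*, in both cases on opposite strands. Whether the libraries kept strand, on which the strand setting of the counting rested, was not given in the sources used here, so reads from these short stretches cannot be assigned with certainty.

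The interferon-stimulated genes were expressed at low level in this muscle, except *Ifi27* and *Bst2*. Levels were compared between genes as RPKM, reads per kilobase of annotated exon, scaled to library size, averaged over all 10 mice. *Ifi27*, which encodes a small protein of mitochondrial and nuclear membranes, stood highest at 20.3 ± 0.823 RPKM (SD, n = 10). *Bst2* (tetherin, which holds budding virus at the cell surface) followed at 7.02 ± 1.54 RPKM, and all 10 mice had more *Ifi27* than *Bst2*. The other 7 genes were all under 1 RPKM on average by this length. *Isg15* had 0.883, *Ifit3* 0.735, *Rsad2* 0.707, *Usp18* 0.671, *Ifit1* 0.509, *Irf7* 0.457 and *Oasl2* 0.182 RPKM. Neighbours in this order from *Isg15* to *Irf7* had overlapping ranges, so their order is not separated beyond the spread between mice. Within single mice *Usp18* was above *Ifit1* in 9 of 10, while the other neighbours held this order in 4 to 6. The ranges did not overlap between *Ifi27* and *Bst2*, between *Bst2* and *Isg15*, or between *Irf7* and *Oasl2*. The order depends on the length used. Per kilobase of the longest coding transcript, *Usp18* stood next after *Bst2* at 1.06 ± 0.168 RPKM, *Irf7* was at 0.771 and *Oasl2*, again lowest, at 0.371 RPKM. The range of *Oasl2* (0.249 to 0.522 RPKM) then met those of *Irf7*, *Ifit1*, *Ifit3* and *Rsad2*. *Isg15*, at 16 to 32 reads per muscle, had the fewest reads of the 9.

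No gene of the 9 passed the test for a difference between AHRmKO and AHRfl/fl muscle. By the quasi-likelihood F-test of edgeR, with p-values adjusted by Benjamini-Hochberg over all 14714 genes, 0 of 9 had an adjusted p under 0.05 (the lowest was 0.815), against 0.0068% of all genes, which is 1 gene. DESeq2 and limma-voom also gave 0 of 9, although DESeq2 set an adjusted p for 3 of the 9 only. At an unadjusted p under 0.05 the count was again 0 of 9, against 6.61% of all genes (3.23% higher and 3.38% lower in AHRmKO). The 2 groups of mice overlapped in each of the 9, whereas groups were apart in 1.4% of all genes. On the log2 scale 3 genes were higher and 6 lower in AHRmKO, where 51.5% of all genes were higher, with a median difference of -0.077 beside 0.0056 over all genes tested. With a mouse left out 2 to 4 of the 9 were higher, and their median ran from -0.14 (without AHRmKO mouse 19) to -0.0077 (without AHRmKO mouse 34), being -0.014 without AHRfl/fl mouse 15. The limits of what 5 mice per group can show are given with each gene as a 95% interval of the log2 difference (AHRmKO minus AHRfl/fl). Values per mouse are in CPM, the reads of a gene scaled to library size as in RPKM but not to gene length, and mice are called by the numbers in their labels.

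**Figure D1:**
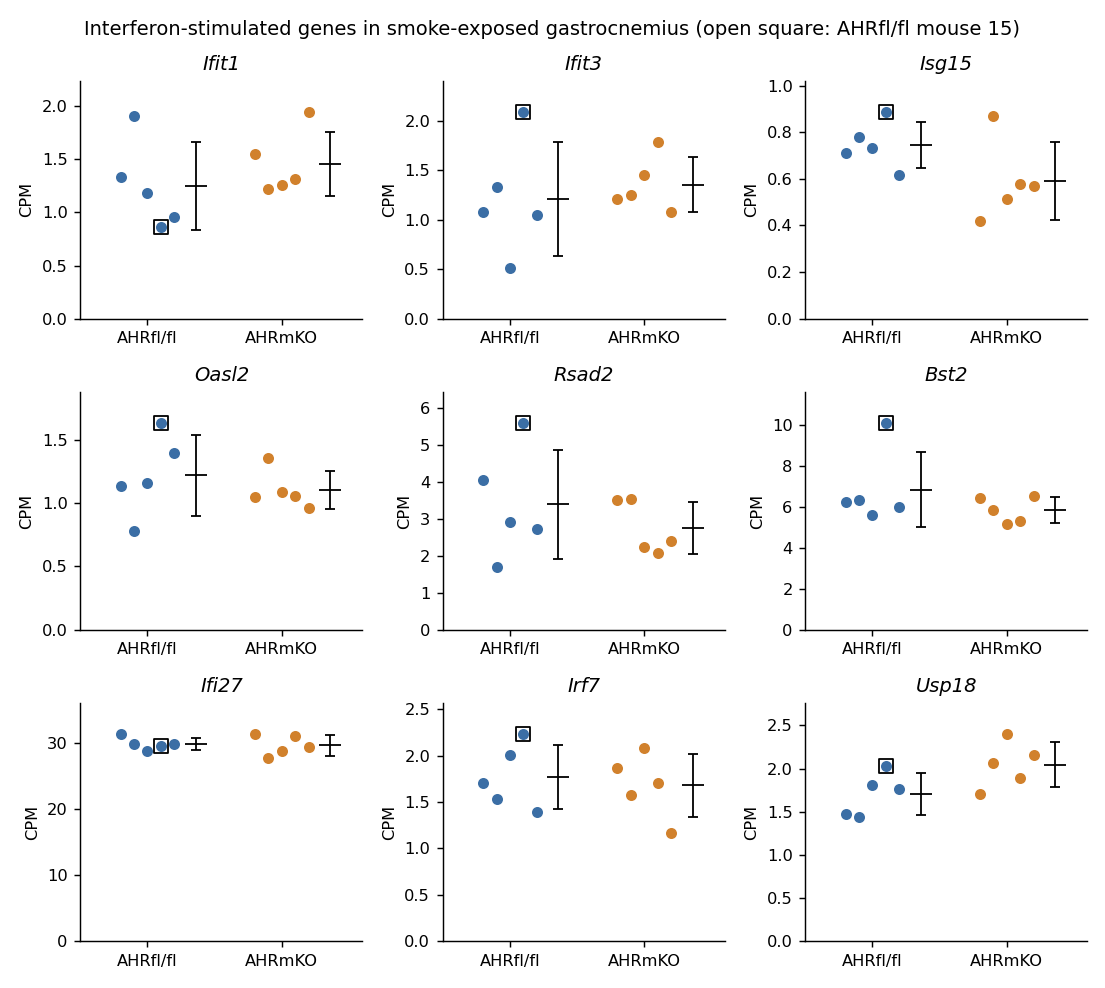
Level of each of the 9 genes in CPM (vertical axes, each from 0) in the 5 AHRfl/fl (blue) and 5 AHRmKO mice (orange). Points are single mice, the bar is the mean ± SD of the group, and the open square is AHRfl/fl mouse 15, which holds the highest value in 6 of the 9 genes; the genotypes overlap in every panel.

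*Ifit1* and *Ifit3* encode proteins of the same family, of which IFIT1 binds foreign RNA and holds back its translation. *Ifit1* was at 1.34, 1.90, 1.19, 0.858 and 0.958 CPM in AHRfl/fl mice 11, 12, 13, 15 and 33, and at 1.55, 1.22, 1.26, 1.31 and 1.94 CPM in AHRmKO mice 8, 9, 19, 22 and 34. AHRfl/fl mice 15 and 33 were lowest, AHRfl/fl mouse 12 and AHRmKO mouse 34 highest, and the genotypes overlapped. AHRmKO minus AHRfl/fl was 0.22 on the log2 scale (95% interval -0.29 to 0.73), with an edgeR adjusted p of 0.903. With 1 mouse left out it was between 0.096 (without AHRmKO mouse 34) and 0.42 (without AHRfl/fl mouse 12), and it was 0.11 and 0.14 without AHRfl/fl mice 15 and 33. *Ifit3* was at 1.08, 1.33, 0.508, 2.09 and 1.05 CPM in the AHRfl/fl mice and at 1.21, 1.25, 1.46, 1.79 and 1.08 CPM in the AHRmKO mice, in the same order of mice. The lowest and the highest of the 10 values were both AHRfl/fl (mice 13 and 15), and the AHRmKO values lay between them. Its log2 difference was 0.16 (-0.49 to 0.81), with an edgeR adjusted p of 0.954, and it was -0.033 without AHRfl/fl mouse 13, 0.041 without AHRmKO mouse 22 and 0.45 without AHRfl/fl mouse 15. With limma-voom it was 0.28. Of *Ifit3*'s 150-base windows of transcript sequence, 18.5% also occur in its neighbour *Ifit3b*, so its level is uncertain to that extent.

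*Oasl2* belongs to the oligoadenylate synthetase-like proteins, which bind double-stranded RNA. Its levels in AHRfl/fl mice 11, 12, 13, 15 and 33 were 1.14, 0.779, 1.16, 1.63 and 1.39 CPM, and in AHRmKO mice 8, 9, 19, 22 and 34 were 1.05, 1.36, 1.08, 1.05 and 0.957 CPM. The AHRmKO mice again fell within the AHRfl/fl range. It differed by -0.15 on the log2 scale (-0.62 to 0.32; edgeR adjusted p 0.939). That difference was -0.018 without AHRfl/fl mouse 15, -0.095 without mouse 33 and -0.27 without mouse 12 of the same genotype, and -0.23 without AHRmKO mouse 9.

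*Rsad2* encodes viperin, which makes a chain-terminating ribonucleotide that stops viral RNA synthesis. Its levels were 4.04, 1.70, 2.91, 5.58 and 2.72 CPM in the AHRfl/fl mice and 3.49, 3.53, 2.23, 2.08 and 2.39 CPM in the AHRmKO mice. AHRfl/fl mice 15 and 11 were highest and AHRfl/fl mouse 12 lowest. The log2 difference was -0.30 (-0.92 to 0.31), with an edgeR adjusted p of 0.884, and was -0.050 without AHRfl/fl mouse 15 and -0.47 without AHRfl/fl mouse 12. *Bst2* was at 6.23, 6.32, 5.59, 10.1 and 5.97 CPM in the AHRfl/fl mice and at 6.41, 5.86, 5.14, 5.31 and 6.52 CPM in the AHRmKO mice. One AHRfl/fl mouse, number 15, stood above the other 9, which all lay between 5.14 and 6.52 CPM. The log2 difference of -0.22 (-0.57 to 0.12; edgeR adjusted p 0.834) became -0.043 without that mouse.

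*Ifi27* was the steadiest of the 9 genes. It was at 31.3, 29.9, 28.8, 29.6 and 29.8 CPM in the AHRfl/fl mice and at 31.3, 27.7, 28.8, 31.1 and 29.4 CPM in the AHRmKO mice. The highest mouse had 1.13 times the level of the lowest. The log2 difference was -0.011, and its interval of -0.14 to 0.11 was the narrowest of the 9 (edgeR adjusted p 0.987).

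*Isg15* encodes a ubiquitin-like protein that is both attached to other proteins and secreted, and *Usp18* encodes the protease that removes it and that also shuts off signalling at the type I receptor. *Isg15* was at 0.711, 0.779, 0.733, 0.887 and 0.618 CPM in AHRfl/fl mice and 0.420, 0.868, 0.514, 0.579 and 0.568 CPM in AHRmKO mice. Of the AHRmKO mice, 4 of 5 lay below all AHRfl/fl mice, and mouse 9 lay above all of those but mouse 15. The log2 difference was -0.34 (-0.86 to 0.19), with an edgeR adjusted p of 0.839 and a two-sided exact permutation p of 0.0952 for the single gene. Without AHRmKO mouse 9 the difference was -0.52. Leaving out 1 mouse at a time, the exact permutation p ran from 0.0159 (without AHRmKO mouse 9) to 0.198 (without AHRfl/fl mouse 15), and it was under 0.05 in that 1 case only. *Usp18* went the other way, at 1.48, 1.44, 1.81, 2.03 and 1.76 CPM in AHRfl/fl mice and 1.71, 2.06, 2.40, 1.89 and 2.15 CPM in AHRmKO mice. All 5 AHRmKO mice were above the AHRfl/fl mean, while the ranges overlapped. The log2 difference was 0.26 (-0.09 to 0.61), with an edgeR adjusted p of 0.815 and an exact permutation p of 0.0714, which ran from 0.0397 (without AHRfl/fl mouse 15, and also without AHRmKO mouse 8) to 0.151 (without AHRfl/fl mouse 11 or 12) and was under 0.05 in those 2 cases only. For the other genes of the 9 the exact permutation p was between 0.294 and 0.746. These exact tests compare each gene alone over all assignments of the mice to groups of 5 and 5, cannot go below 0.00794 and were not adjusted for the 9 genes.

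*Irf7* encodes the transcription factor that amplifies type I interferon production. Its levels were 1.71, 1.53, 2.00, 2.23 and 1.39 CPM in AHRfl/fl mice and 1.87, 1.57, 2.08, 1.71 and 1.17 CPM in AHRmKO mice. AHRfl/fl mouse 15 was highest, AHRmKO mouse 34 lowest, and the genotypes overlapped. The log2 difference was -0.077 (-0.50 to 0.35; edgeR adjusted p 0.967) and changed sign when AHRfl/fl mouse 15 (0.020) or AHRmKO mouse 34 (0.027) was left out.

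**Figure D2:**
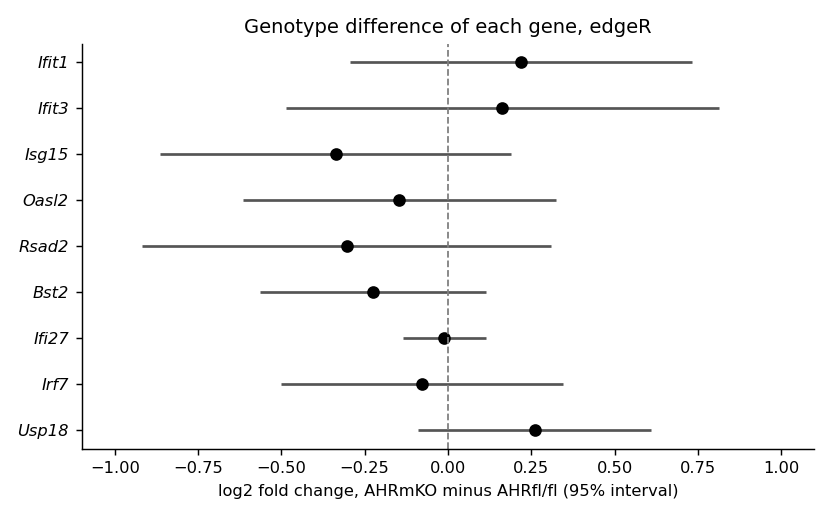
Log2 fold change of each gene (horizontal axis, AHRmKO minus AHRfl/fl; points) with its 95% interval (lines) from edgeR over 5 mice per genotype. Every interval crosses 0 (dashed line), the narrowest for Ifi27 (-0.14 to 0.11) and the widest for Ifit3 (-0.49 to 0.81).

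The targeted gene and its pathway were read in the same fit. *Ahr* had 43 to 110 reads in AHRfl/fl and 31 to 80 in AHRmKO muscle, a log2 difference of -0.35 (edgeR adjusted p 0.844), so the whole-muscle RNA did not separate the labelled genotypes by *Ahr*. These counts cover the whole gene, including the exons that the deletion leaves in place, and the cells of a muscle other than its fibres. The study itself reports deletion in skeletal muscle of this line, by PCR of DNA and by quantitative PCR. *Cyp1a1*, the classic AHR target, was at 1.24 ± 0.180 against 1.60 ± 0.359 CPM (SD, n = 5 each), with an edgeR adjusted p of 0.792. By the study's account AHR activation was back at baseline when these muscles were taken. The values of *Cyp1a1* and of the 9 genes therefore do not describe muscle during that activation. *Esr1*, the estrogen receptor gene whose ligand-binding part forms the ends of MerCreMer, was the only gene of 14714 past the threshold, with a log2 difference of 4.44 and an edgeR adjusted p of 0.000433. *Xist* reads numbered 44 to 75 in 5 of the 10 libraries (AHRfl/fl mice 11, 15 and 33, AHRmKO mice 9 and 22) and 0 to 3 in the others, and the Y-linked *Ddx3y* was at 1852 to 2723 in every one. With the presence of *Xist* reads as a covariate, 0 of the 9 interferon-stimulated genes passed, and the log2 difference was -0.061 for *Oasl2*, -0.17 for *Rsad2* and 0.27 for *Ifit3*, while those of the other 6 moved by less than 1.5 times.

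Around the 9 genes, the pathway was present from receptor to target but its ligands were nearly without reads. Of 21 interferon genes in the table, 17 had 0 reads in all 10 mice, and the 21 together had 14 reads, at most 3 in a muscle. A count of 0 allows up to 3 reads, which is 0.0788 to 0.0927 CPM in these libraries. Of these, *Ifng* had 7 reads and the type I genes 6. None of the ligands could be tested.

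Receptors and signalling factors were readily measured. *Ifngr2* (50.5 ± 1.70 against 46.4 ± 4.78 CPM; SD, n = 5) and *Ifngr1* (20.0 ± 2.71 against 22.7 ± 3.03 CPM), the chains of the interferon gamma receptor, had the highest levels and the smallest p-values of 5 receptors tested, and 0 of 5 passed, with edgeR adjusted p of 0.815 for both. Of 13 JAK-STAT and IRF genes, 8 were higher (6 to 8 with a mouse left out) and 5 lower in AHRmKO and 0 passed. *Stat3*, which carries cytokine signals such as that of interleukin 6, was at 47.0 ± 2.78 CPM in AHRfl/fl and 61.0 ± 12.6 CPM in AHRmKO muscle, a log2 difference of 0.38 with an unadjusted p of 0.00692 and an adjusted p of 0.606 in edgeR. *Jak1*, a kinase of both receptors, was at 136 ± 17.3 against 151 ± 12.3 CPM. Of 14 nucleic acid sensors and adaptors, 8 were higher (6 to 10 with a mouse left out), 6 lower and 0 passed. *Mavs*, the adaptor of the RNA sensors, was at 35.9 ± 5.34 against 35.3 ± 3.42 CPM, and *Tlr7*, an RNA sensor of immune cells, at 0.497 ± 0.0891 against 0.329 ± 0.141 CPM (edgeR adjusted p 0.792). Of 11 negative regulators, 6 were higher, 5 lower and 0 passed, but with library size alone as the scale, with *Xist* as a covariate, and without AHRfl/fl mouse 13 or 15 or AHRmKO mouse 34, 3 were higher and 8 lower. The largest of these in level, the phosphatase *Ptpn11*, was at 107 ± 4.41 against 108 ± 16.2 CPM.

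Targets outside the 9 genes did not pass the test either. Of 54 other interferon-stimulated genes listed, 44 were tested, 28 were higher and 16 lower in AHRmKO, 0 passed, and their median log2 difference was 0.11, or 0.017 (without AHRmKO mouse 8) to 0.18 (without AHRfl/fl mouse 15) with a mouse left out. *Nmi*, which binds STAT proteins, had the smallest p of them (3.07 ± 0.584 against 3.87 ± 0.310 CPM; unadjusted p 0.0369 and adjusted p 0.720 in edgeR). Among the 10 not tested were *Mx1* and *Mx2*, antiviral GTPases, with at most 9 and 11 reads in a muscle (named after their values were seen). Of 19 guanylate-binding proteins (GBP), immunity-related GTPases (IRG) and other interferon gamma targets, 7 were higher, 12 lower and 0 passed, with a median of -0.10; without AHRfl/fl mouse 15, described later, 13 were higher and 6 lower, with a median of 0.10. With any other mouse left out that median was between -0.25 (without AHRfl/fl mouse 12 or AHRmKO mouse 19) and -0.029 (without AHRmKO mouse 34), and it was -0.013 with limma-voom and -0.0074 with *Xist* as a covariate. Of 17 genes of MHC class I antigen presentation, 3 were higher, 14 lower and 0 passed, also with a median of -0.10, and without the same mouse 10 were higher and 7 lower, with a median of 0.020. *H2-D1* and *H2-K1*, the heavy chains that present peptide to T cells, were at 88.1 ± 12.9 against 81.4 ± 5.95 CPM and at 83.8 ± 10.7 against 77.6 ± 4.24 CPM.

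The spread of each gene over the 10 mice (coefficient of variation, CV) was set beside that of counting reads alone. Separate animals differ by more than counting in most genes, so the ratio of both is a description. Over the 9330 genes tested with mean reads in the range of the 9 (23.6 to 1055) its median was 2.09 (quartiles 1.62 and 2.85). For the same difference between animals the ratio is larger in genes with more reads. A gene's place among the 9330 therefore partly reflects its mean reads, which ran from 23.6 for *Isg15* to 1055 for *Ifi27*. *Rsad2* had the highest ratio of the 9, 3.89 (CV 37.3%, counting 9.59%), which 11.2% of those genes exceeded. *Bst2* was at 3.28 (21.9%, counting 6.68%), which 17.2% exceeded. The ratios of *Ifit3* (2.27), *Ifit1* (1.83), *Irf7* (1.49), *Oasl2* (1.34), *Ifi27* (1.32), *Usp18* (1.30) and *Isg15* (1.12) were all below the upper quartile, and those of the last 5 were also below the lower quartile. Without AHRfl/fl mouse 15 the ratio was 2.76 for *Rsad2* and 1.21 for *Bst2*, whose CV was then 8.33%.

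One AHRfl/fl mouse, number 15, was high in most of the 9 genes; it was singled out after its values were seen, so what follows is a description without a test. It held the highest level of *Ifit3*, *Isg15*, *Irf7*, *Oasl2*, *Rsad2* and *Bst2*, 6 of the 9 genes, whereas it was highest for 8.44% of all genes tested. For *Ifit1* the same mouse was the lowest of the 10, and for *Ifi27* (29.6 CPM) it was in the middle. Its *Bst2* was 1.54 times the next highest mouse and its *Rsad2* 1.38 times. For *Ifit3* and *Oasl2* the ratio was 1.17, and for *Irf7* 1.07. For *Isg15* it was 1.02, on 31 reads beside 32 reads in AHRmKO mouse 9, so that rank is within counting error. Its library had no unusual depth. The median log2 deviation from the median mouse was 0.391 for the 9 genes in this mouse. Over all genes it was 0.001, a value that is near 0 in every mouse (-0.007 to 0.006) and so says nothing particular about this one.

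The same mouse stood high among interferon targets beyond the 9 genes. It was the highest in 21 of 44 (47.7%) other interferon-stimulated genes, in 12 of 19 (63.2%) GBP, IRG and interferon gamma targets, and in 15 of 17 (88.2%) MHC class I genes. The median log2 deviations of these lists in that mouse were 0.297, 0.902 and 0.434. *H2-D1* was at 109 CPM there, with 72.1 to 89.3 CPM in the other 9 mice. *H2-Q4*, another class I heavy chain, was at 25.3 CPM, with 11.8 to 19.1 CPM in the others. Of the upstream genes it was highest in 0 of 5 receptors, 2 of 14 sensors, 0 of 11 negative regulators and 5 of 13 JAK-STAT and IRF genes, among them *Stat2* (6.58 CPM; 3.72 to 6.10 CPM in the others), named after its values were seen.

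**Figure D3:**
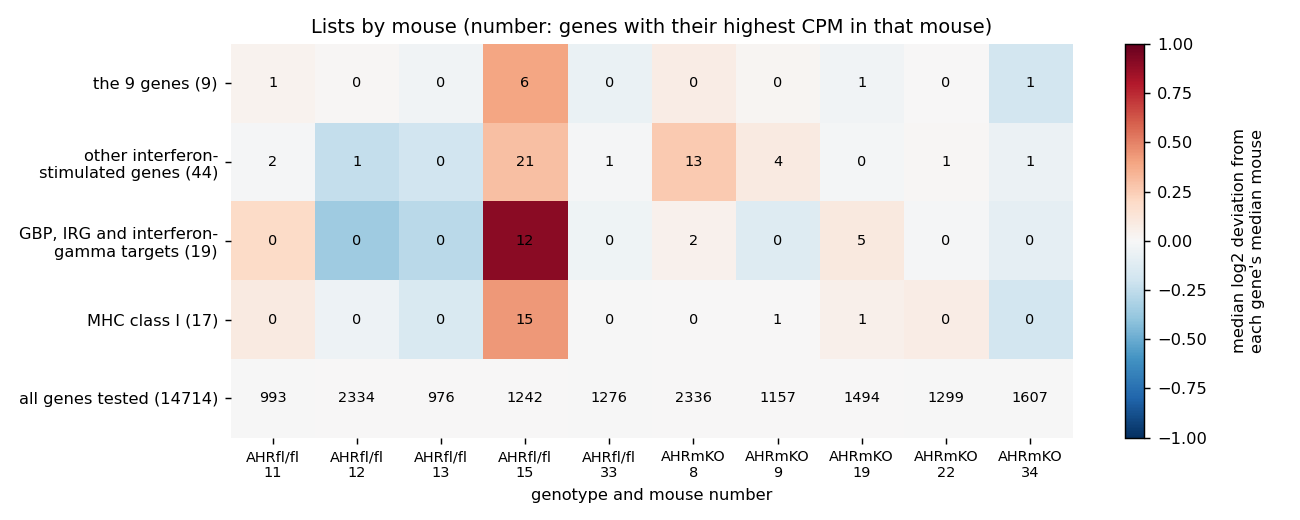
Lists of interferon targets (rows, with the number of genes tested) in each mouse (columns). Colour is the median log2 deviation of the list's genes from each gene's median mouse, and the number in each cell is how many genes have their highest level in that mouse; AHRfl/fl mouse 15 has 6 of 9, 21 of 44, 12 of 19 and 15 of 17, while all genes tested are near 0 in every mouse.

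The genes whose levels most followed the 9 across mice were then looked for. Each of the 14705 other tested genes was correlated over the 10 mice with the mean standardised level of the 9. The 5 most alike were *Gbp4* (r = 0.973), *Gbp3* (r = 0.968), *Cd274* (r = 0.966), *B2m* (r = 0.950) and *Tgtp2* (r = 0.942). *Gbp4* and *Gbp3* encode guanylate-binding proteins, *Tgtp2* an IRG GTPase, *Cd274* the checkpoint ligand PD-L1, and *B2m* the light chain of MHC class I. The points share mouse 15, which had 13.2 CPM of *Gbp4* (1.55 to 4.38 CPM in the other 9 mice), 5.89 CPM of *Gbp3* (1.02 to 2.30 CPM), 4.06 CPM of *Cd274* (0.705 to 1.56 CPM), 106 CPM of *B2m* (64.5 to 83.1 CPM) and 4.20 CPM of *Tgtp2* (0.663 to 1.28 CPM). Over the other 9 mice r was 0.881 for *Gbp4*, 0.834 for *Gbp3*, 0.917 for *Cd274*, 0.790 for *B2m* and 0.641 for *Tgtp2*. An r over 0.6 was found for 12 of 17 (70.6%) MHC class I genes, 11 of 19 (57.9%) GBP, IRG and interferon gamma targets and 12 of 44 (27.3%) other interferon-stimulated genes, beside 436 (2.96%) of all 14705 genes. Without mouse 15 these counts were 4 of 17, 6 of 19 and 11 of 44, beside 982 of all 14705 genes. Without it the median r fell from 0.732 to 0.379 in the MHC class I list and from 0.746 to 0.323 in the interferon gamma list.

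**Figure D4:**
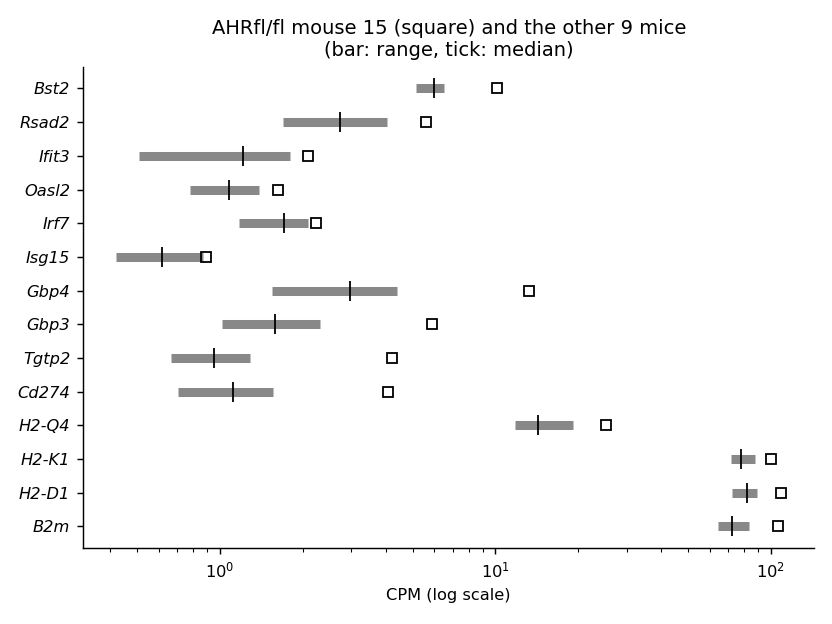
Level in CPM (horizontal axis, log scale) of the 6 interferon-stimulated genes that were highest in AHRfl/fl mouse 15 and of 8 other interferon targets. The square is mouse 15, the bar the range of the other 9 mice and the tick their median. The gap is widest for Tgtp2 (4.2 against at most 1.28 CPM), then Gbp4 (13.2 against at most 4.38 CPM), Cd274 and Gbp3. For Isg15 it is within the width of the symbol.

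Of 12 marker lists of cell types, mouse 15 was the highest in 1, that of plasmacytoid dendritic cells. Summed over 9 macrophage markers it had 40.6 CPM, below 2 of the other mice. One mouse was above it for the 6 neutrophil markers (4.66 CPM), 2 mice for the 8 T and NK cell markers (3.23 CPM), 3 for the 6 endothelial markers (199 CPM) and 1 for the 6 fibroblast markers (564 CPM). For the adipocyte markers (2.12 CPM) it was the lowest of the 10 mice, and for the myofibre markers (129000 CPM) it ranked 9 of 10. The plasmacytoid dendritic cell list was dominated by *Cox6a2*, a gene that muscle fibres also express. Its other markers, *Siglech*, *Ccr9* and *Klk1*, summed to 57 reads (1.63 CPM) in mouse 15 and to 0.341 to 1.05 CPM in the other 9. The part of these cells in its levels was not tested, and in bulk tissue fewer cells of a type and less RNA per cell cannot be told apart.

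Between genotypes the marker lists overlapped. Myofibre markers summed to 118000 to 157000 CPM in AHRfl/fl and 132000 to 154000 CPM in AHRmKO muscle (exact permutation p = 0.444), as the labelled tissue has it. Macrophage markers were at 26.5 to 44.8 CPM (median 38.6) against 23.8 to 54.7 CPM (median 38.3; exact permutation p = 0.770). Neutrophil markers were at 2.81 to 4.82 CPM (median 4.15) against 0.604 to 3.80 CPM (median 2.13; exact permutation p = 0.0556). Of 12 lists, 0 had an exact permutation p under 0.05, unadjusted, and every list had reads for each of its markers found in the table. Median log2 differences were below 0 for the tested markers of neutrophils (0 of 2 higher in AHRmKO), plasmacytoid dendritic cells (0 of 2), T and NK cells (0 of 3) and B cells (1 of 6). They were also below 0 for fibroblasts (1 of 6), satellite cells (1 of 3) and smooth muscle and pericytes (2 of 5). For erythroid cells (5 of 5), adipocytes (3 of 3), endothelial cells (6 of 6), macrophages (7 of 9) and myofibres (5 of 7) they were above 0. None of these markers passed. Of the 9 interferon-stimulated genes, 6 were lower (*Isg15*, *Rsad2*, *Bst2*, *Oasl2*, *Irf7* and *Ifi27*) and 3 higher (*Ifit1*, *Ifit3* and *Usp18*), and none passed. The part of these cells in those values was not tested.

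The 9 genes differed in how they varied from mouse to mouse. Over the 36 pairs Pearson's r on log2 CPM was positive in 24, with a median of 0.0987. With each genotype centred on its mean r was again positive in 24, with a median of 0.219, and without mouse 15 it was positive in 17, with a median of -0.116. One pair passed adjustment over the 36. *Ifit1* and *Oasl2* ran in opposite directions, with r = -0.919 (permutation p = 0.00021, adjusted p = 0.00756) and Spearman's rho = -0.939 (permutation p = 0.00021, adjusted p = 0.00756) over 10 mice. The 2 mice farthest from the median of *Ifit1* were AHRfl/fl 15 and AHRmKO 34, and without them r was -0.908. Within genotype r was -0.990 over the 5 AHRfl/fl mice and -0.734 over the 5 AHRmKO mice, as values only, and with each genotype centred on its mean it was -0.925. AHRfl/fl mice 15 and 33 had the lowest *Ifit1* (0.858 and 0.958 CPM) and the highest *Oasl2* (1.63 and 1.39 CPM), whereas AHRmKO mouse 34 and AHRfl/fl mouse 12 had the highest *Ifit1* (1.94 and 1.90 CPM) and the lowest *Oasl2* (0.957 and 0.779 CPM). These ends of the pair also differ in *Xist* reads, with 69 and 75 in mice 15 and 33 and 0 and 1 in mice 34 and 12. The part of that library difference in the correlation was not tested. These values rest on 30 to 66 reads of *Ifit1* and 27 to 57 reads of *Oasl2* in a muscle. At such read numbers counting alone gives *Ifit1* a CV of 14.4%, beside the 26.4% measured, and *Oasl2* a CV of 15.6%, beside 20.9%. With mouse 15 or mouse 33 of AHRfl/fl left out, 0 of 36 pairs passed adjustment, while r for this pair was -0.878 and -0.909, and over all 10 leave-outs it lay between -0.878 and -0.942. Without mouse 15 the CV of *Oasl2* was 17.0%, beside 16.0% from counting alone, and that of *Ifit1* 23.5%, beside 14.2%. The spread of *Oasl2* was then close to that of counting reads. The leave-outs share most of their mice and are not separate evidence for this pair. The next pairs, *Oasl2* with *Rsad2* (r = 0.782, adjusted permutation p = 0.144; rho = 0.673, adjusted permutation p = 0.460) and *Rsad2* with *Bst2* (r = 0.674, adjusted permutation p = 0.392), did not pass. *Oasl2* with *Rsad2* fell to r = 0.364 without its 2 farthest mice, AHRfl/fl 12 and 15.

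**Figure D5:**
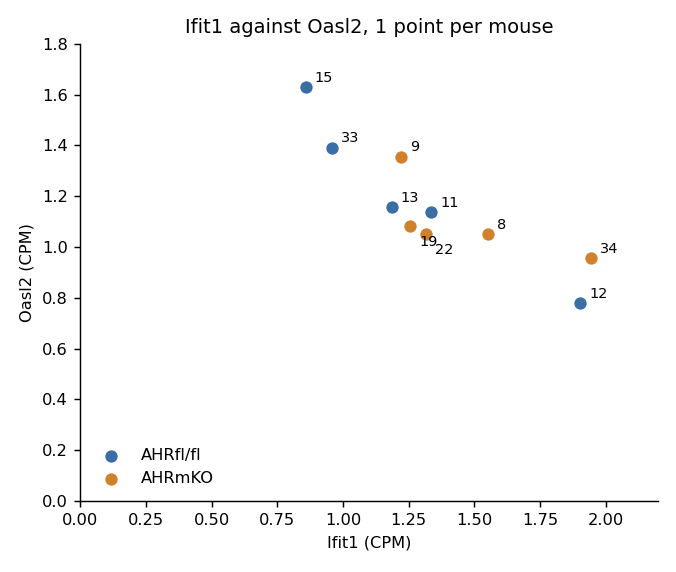
Ifit1 (horizontal axis, CPM) against Oasl2 (vertical axis, CPM), 1 point per mouse with its number, AHRfl/fl in blue and AHRmKO in orange. Mice with more Ifit1 have less Oasl2 in both genotypes (r = -0.919 on log2 CPM over 10 mice).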

How the data were processed

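RNA from 10 gastrocnemius muscles was analysed. The authors trimmed reads (Trimmomatic 0.36), aligned them to GRCm38 (STAR 2.5.2b) and counted unique exon hits per gene, without pooling. The deposited values are raw counts, and whether the libraries kept strand, on which the strand setting of the counting rested, is not given in the sources used here. The 9 genes, the gene lists and the markers were chosen with earlier results of these data known. Genes passed filterByExpr (minimum count 10, minimum total 15). AHRmKO and AHRfl/fl were compared with edgeR 4.0.16 (TMM, robust quasi-likelihood fit, Benjamini-Hochberg adjustment, threshold 0.05); the authors used DESeq2, tried here as an alternative (1.42.0), as was limma 3.58.1. Log2 CPM used a prior count of 2. RPKM used union exon lengths of GENCODE M21. Single values were compared by exact permutation, and pairs of genes by 100000 permutations. Counting intervals and floors (3 reads) cover counting error only. Mice were the replicates. The script for the count test was tested on simulated data. In each pathway list the genes named are those past the threshold or else drawn from the 2 with the highest level and the 2 with the smallest p; the 5 genes most alike, Ahr, Cyp1a1 and Esr1 were also named. Promoters are from RefSeq, and their motifs were read as letters only. Alternatives changed the test, normalization, filter, threshold or mice.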

Additional observations from a re-analysis of the deposited data

Results flagged for a closer look

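*Bst2* in AHRfl/fl mouse 15 (10.1 CPM) stood apart from the other 4 AHRfl/fl mice (5.59 to 6.32 CPM). On the log2 CPM scale the gap to its nearest neighbour was 0.792 of the group's range, above Dixon's 95% critical value of 0.710 for 5 samples. This was 1 of 18 groups examined (9 genes in 2 genotypes), where chance flags 0.9.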

How the results depend on the processing

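The count of 0 of the 9 genes past the threshold was the same in the 8 other settings and with each of the 10 mice left out in turn, with adjusted p-values from 0.699 to 0.999. DESeq2 gave an adjusted p for only 3 of the 9 genes. Over all genes the count was 1, and 21 with DESeq2, 5 without a filter on low counts and 1 to 6 with a mouse left out (6 without AHRmKO mouse 34). Signs of the 9 genes turned only when a mouse was left out. The log2 difference of *Ifit3* ran from -0.033 (without AHRfl/fl mouse 13) to 0.45, that of *Irf7* from -0.16 to 0.027 (above 0 without AHRfl/fl mouse 15 or AHRmKO mouse 34) and that of *Ifi27* from -0.031 to 0.014 (above 0 without AHRfl/fl mouse 11, 0.0067, AHRmKO mouse 9, 0.014, or AHRmKO mouse 19, 0.0038). The cause was not tested. Genes with an exact permutation p under 0.05 numbered 0 to 1 with a mouse left out (*Isg15* or *Usp18*), and marker lists 0 to 1. The neutrophil list had an exact permutation p of 0.0476 without AHRfl/fl mouse 11, without AHRmKO mouse 19 and with library size alone as the scale, and of 0.0397 without AHRmKO mouse 34, and the plasmacytoid dendritic cell list had 0.0476 without AHRfl/fl mouse 12. Pairs of genes past adjustment numbered 0 to 1. The alternatives that add *Xist* as a covariate or leave mice out of the pairs, marker lists, pathway list medians, spreads and exact tests, or take the length of the longest coding transcript, were chosen after seeing the data. No paired analysis was possible because the mouse numbers do not repeat between genotypes. Low read numbers (16 to 84 in a muscle for 6 of the 9 genes) limit what differences could be seen.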

Other observations

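AHRmKO mice also differed among themselves in other interferon targets, here named after their values were seen. Mouse 8 had the highest level of 13 of 44 (29.5%) other interferon-stimulated genes, against 15.9% of all genes tested. Among them were *Oas2*, an oligoadenylate synthetase, at 1.92 CPM (0.733 to 1.70 CPM in the other 9 mice), and *Eif2ak2*, the RNA-activated kinase PKR, at 3.49 CPM (1.96 to 3.42 CPM). In the same mouse 5 of 6 endothelial and 3 of 5 smooth muscle and pericyte markers were at their highest, both tested neutrophil markers were at their lowest, and median log2 deviations were 1.371 in adipocyte and 1.225 in erythroid markers. The part of these cells was not tested. Mouse 19 was the highest for 5 of 19 interferon gamma targets, against 10.2% of all genes. It was also the highest for 4 of 6 B cell markers (median log2 deviation 0.847) and 3 of 5 erythroid markers (1.426), and the part of these cells was not tested. *Irgm2*, an IRG GTPase, was at 38.5 CPM there and at no more than 16.3 CPM in the other 9 mice. The chemokine *Cxcl10*, which draws T cells, was at 2.60 CPM in mouse 19 and at 0.315 CPM in AHRfl/fl mouse 15, so it did not share that mouse's high values. AHRfl/fl mice 12 and 13 were each the lowest in 13 of 44 (29.5%) other interferon-stimulated genes, against 15.3% and 8.15% of all genes. Mouse 12 also had the lowest level of 3 of 6 endothelial and 3 of 6 fibroblast markers and the highest sum of myofibre markers (157400 CPM), and mouse 13 had median log2 deviations of -0.469 in macrophage and -0.398 in fibroblast markers, while 3 of 3 tested T and NK cell markers were at their highest there. The part of these cells was not tested.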
